A study of Mus musculus with 502 samples.

Results

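Overlapping silencers of 293T and LNCap, with none of K562, made up a small set of 2976 regions among 350589 on chromosomes 1 to 22 (0.849%, 95% Wilson interval 0.819 to 0.880). The regions were chosen by position: the silencer lists of the 3 lines were joined, intervals overlapping by at least 1 bp were merged, and merged regions with intervals of 293T and LNCap and without K562 were kept. The score of a silencer played no part in the choice beyond the authors' own calling of the lists. The overlap of 293T and LNCap and the absence of K562 are therefore given as a description.

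A silencer is a stretch of DNA that lowers transcription from a linked promoter, and repressor proteins such as REST, polycomb complexes and histone deacetylase complexes are known to act through such elements. A self-transcribing reporter assay clones genomic fragments into a plasmid, and the RNA made from each plasmid, set against the plasmid DNA, reports what the fragment does to a promoter that is always the same. A silencer that works in several cell types is often thought to rest on widely made repressors, whereas one seen in a single type may need a repressor made only there. The assay tests a fragment on a plasmid, away from its own chromatin and its own gene.

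The lines were 293T, derived from embryonic kidney cells and known to express some neuronal genes, LNCap, an androgen-responsive line from a prostate cancer metastasis, and K562, a line from chronic myeloid leukaemia with erythroid features. All were untreated as far as the labels say, and each is a single established line. The 502 libraries comprised 461 of output RNA, 180 of them from K562 and the others from 293T and LNCap, and 41 of input DNA, 40 of them from LNCap and 1 from 293T. A K562 input was not analysed here. Each line was represented by 1 silencer list, so no replicate spread could be measured, a missed silencer could not be told from an absent one, and no test between lines was possible. The libraries are labelled as mouse, but the lines are human, the build named is hg38, and chromosome 1 in the lists runs to 249 Mb, longer than that of the mouse. The human sequence and gene annotation were not used here, so regions are given by hg38 position and no gene is named.

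Of the regions with a 293T silencer, 2.503% were shared with LNCap alone (2976 of 118877, interval 2.42 to 2.59). Of the regions with a LNCap silencer, 2.28% were (2976 of 130493, interval 2.201 to 2.363). Another 1299 regions held 293T and LNCap together with K562. K562 thus took part in 30.4% of the 4275 regions that held both 293T and LNCap (interval 29.03 to 31.78). The 1299 include any region in which a K562 interval alone joined the 293T and LNCap intervals. Such joining raises the share by construction, and its extent was not counted. Among LNCap regions without 293T, K562 was present in 14.2% (interval 14.03 to 14.41), and among 293T regions without LNCap in 2.33% (interval 2.25 to 2.42). A region held by both lines was more often a K562 region as well than a region held by either alone. The part of such joining in this difference was not tested. Even so, 2976 of the 4275 had no overlapping K562 silencer. The mirror set, 293T and K562 without LNCap, had 2675 regions. LNCap took part in 32.7% of the 3974 regions that held both 293T and K562 (interval 31.2 to 34.2), with the same limit. The remaining pairing, K562 and LNCap without 293T, was far larger, with 17947 regions. Of the 19246 regions that held both K562 and LNCap, 293T took part in only 6.75%, again with this limit. The share joined by the third line thus differed widely between pairings, and was low where that line was 293T.

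The 293T and LNCap silencers of a region mostly overlapped in part and seldom coincided. In 2817 of the 2976 regions 1 interval of each line met 1 of the other. The regions had a median width of 150 bp (quartiles 100 and 234, range 50 to 897). The bases common to both lines had a median of 50 bp per region (quartiles 29 and 50) and came to 159365 bp in all, 47.2% of the 293T bases and 45.7% of the LNCap bases in these regions. Over the 3144 overlapping pairs of intervals, the median width was 79 bp in 293T and 93 bp in LNCap. Of these pairs, 56.2% overlapped in part, 19.9% had the 293T interval inside the LNCap interval, 20.3% the reverse, and 3.53% (interval 2.94 to 4.23) were identical. Neither line lay to 1 side: the LNCap midpoint was at the higher position in 1509 pairs, at the lower in 1467, and at the same position in 5.34%. Midpoints lay a median of 40 bp apart, and 87.2% of pairs within 100 bp.

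The pairs coincided exactly less often than those of K562 and LNCap, while their midpoints lay about as close. Midpoints were a median of 40 bp apart in 293T and LNCap and 39 bp in K562 and LNCap, and 87.2% (interval 86.03 to 88.4) and 86.2% of pairs (interval 85.7 to 86.7) lay within 100 bp. In regions shared by K562 and LNCap without 293T, 7.06% of 19754 overlapping pairs were identical (interval 6.71 to 7.43), 42.3% overlapped only in part, and 21.9% shared at least 100 bp, against 10.9% for 293T and LNCap (interval 9.84 to 12.0). The share at 100 bp is also bounded by width, and the K562 and LNCap intervals were the wider, with medians of 100 bp in each line. The 293T and K562 pairs resembled the 293T and LNCap pairs, with 4.62% identical (interval 3.91 to 5.46) and 11.5% sharing at least 100 bp (interval 10.3 to 12.7). Where both intervals were 50 bp wide, the starts were equal in 15.5% of 652 pairs of 293T and LNCap (interval 12.9 to 18.5) and in 33.3% of 3197 pairs of K562 and LNCap (interval 31.73 to 34.997). Among the other 293T and LNCap pairs of that width the offset was spread fairly evenly, with 15.2%, 14.6%, 18.9%, 17.6% and 18.3% of pairs at 1 to 9, 10 to 19, 20 to 29, 30 to 39 and 40 to 49 bp. Many intervals of the lists are 1 window of 50 bp, and the part of the windows in these shares was not tested.

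At the edge of the overlap rule, 4.42% of the pairs shared 5 bp or fewer, and the regions with so few shared bases had median scores of 2.4 in both lines. Just outside it, 540 regions of 293T alone lay 0 to 5 bp from a region of LNCap alone, with a median score of 2.4, and 451 of these touched it without sharing a base. The sources used here do not say whether an interval includes both of its end positions. If it does, touching intervals share 1 base, and the set grows to 3354 regions. The region with the fewest shared bases among the 8 strongest, on chromosome 7 from 63876751 to 63876850, rests on 1 shared base.

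In score, the regions of 293T and LNCap stood above the regions of 1 line alone, as did every other shared set. Compared within 293T and within LNCap, their shares of high scores were the lowest among the shared sets. For 293T the interval overlapped that of 293T and K562, but not that of all 3 lists. The authors' activity score is deposited with 1 decimal, starts at 2 and has no stated scale, so it serves here only for description and for ranks inside each list. In 293T the score was 3 or more in 510 of 2976 regions (17.1%, interval 15.8 to 18.5), against 14.2% of all regions with a 293T silencer and 13.9% of those with 293T alone. In LNCap it was 3 or more in 486 of 2975 regions with a finite score (16.3%, interval 15.1 to 17.7), against 11.6% of all regions with a LNCap silencer and 10.1% of those with LNCap alone. The share was 19.1% for 293T in regions of 293T and K562 (interval 17.6 to 20.6), which overlaps that of the set, and 19.1% for LNCap in regions of K562 and LNCap (interval 18.5 to 19.6), which lies above it. The regions of all 3 lists stood higher still, at 21.8% for 293T (interval 19.6 to 24.1) and 23.3% for LNCap (interval 21.1 to 25.7). The medians hardly moved, at 2.3 in each line for the regions of 293T and LNCap, 2.3 for 293T alone and 2.2 for LNCap alone.

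Silencer width differed between the kinds of region, so scores were also set side by side at equal width. Among 293T silencers of up to 50 bp, 19.2% of the 1519 in these regions scored 3 or more (interval 17.3 to 21.2), against 13.9% of the 73185 in regions of 293T alone. Over 50 and up to 100 bp the 293T shares were 16.03% and 15.5%, over 100 and up to 150 bp 16.8% and 12.9%, and above 150 bp 11.2% and 11.3%. For 293T the shares thus stood apart in the narrowest silencers, and in the 3 wider classes their intervals overlapped. For LNCap they stood apart at every width. The shares were 19.2% of 1462 against 10.9% at up to 50 bp, 17.1% against 10.2% over 50 and up to 100 bp, 12.8% against 8.06% over 100 and up to 150 bp, and 9.19% against 5.43% above 150 bp.

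**Figure D1:**
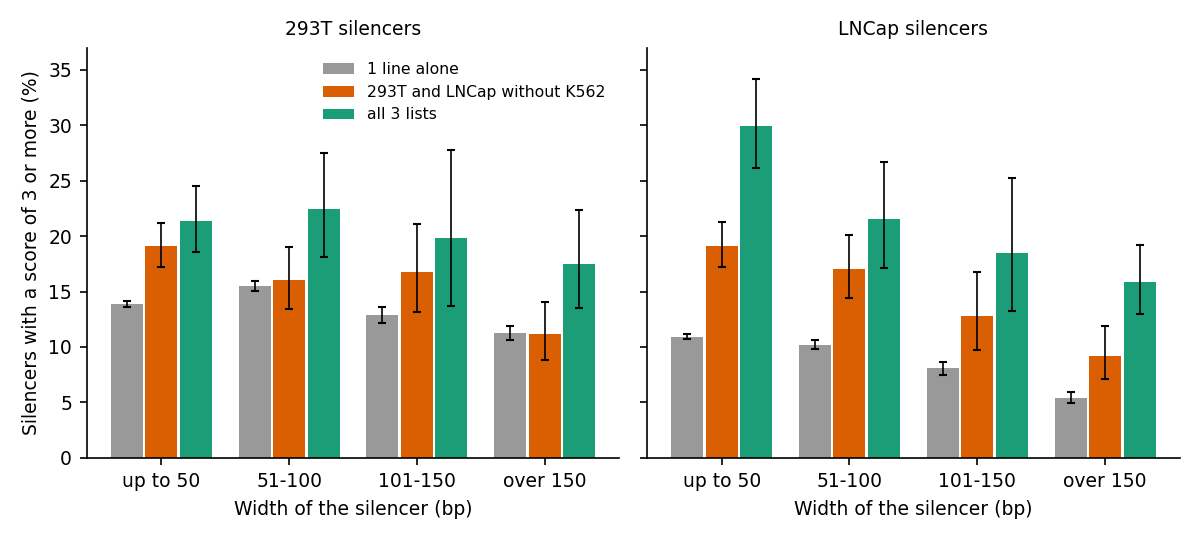
Share of silencers with an activity score of 3 or more (vertical axis, %) by silencer width (horizontal axis, bp), for 293T (left) and LNCap (right); bars are 1 line alone (grey), 293T and LNCap without K562 (orange) and all 3 lists (green), with 95% Wilson intervals for counting error. At up to 50 bp the orange bars reach 19.2% in both lines, against 13.9% for 293T alone and 10.9% for LNCap alone.

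Neither line had the higher score throughout. Over 2975 regions the score was higher in LNCap in 1323 (44.5%, interval 42.7 to 46.3), higher in 293T in 1352 (45.4%, interval 43.7 to 47.2) and equal in 300. The 293T list holds more high scores, as the shares at 3 or more show, and when each score was replaced by its rank within its own list, LNCap was higher in 55.1% of regions. By score the shares of the lines were close, and their intervals overlapped. By rank LNCap was higher in 1639 of the 2975 regions, so which line led depended on the measure. Equal scores can take unequal ranks in the lists, so the 300 ties can count for a line by rank. How many of them did was not counted. The median absolute difference was 0.3 score units, 40.5% of regions differed by at most 0.2, and 411 differed by more than 1, 210 of them with the higher score in 293T. The region left out, on chromosome 4 from 92718776 to 92718851, had an infinite score in LNCap and 2.2 in 293T.

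The scores of the lines were loosely related. Over the 2975 regions the Spearman correlation was 0.17 and the Pearson correlation 0.16; regions of 1 genome are not independent replicates, and both scores start at the same cutoff. The share of LNCap scores of 3 or more rose with each class of 293T score. Where 293T scored 2 to 2.1, LNCap scored 3 or more in 10.4% of 823 regions (interval 8.54 to 12.7). At 2.2 to 2.4 in 293T it was 13.5% of 906 (interval 11.4 to 15.8). At 2.5 to 2.9 it was 20.2% of 736 (interval 17.5 to 23.3). Where 293T scored 3 or more, LNCap did so in 25.3% of 510 regions (interval 21.7 to 29.2). The corresponding rise in regions of K562 and LNCap, by K562 score, was from 10.5% (interval 9.69 to 11.3) to 37.98% (interval 36.1 to 39.9), with a Spearman correlation of 0.27. In regions of 293T and K562, by 293T score, it was from 9.52% (interval 7.56 to 11.9) to 20.8% (interval 17.5 to 24.5) for K562, with a correlation of 0.12.

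**Figure D2:**
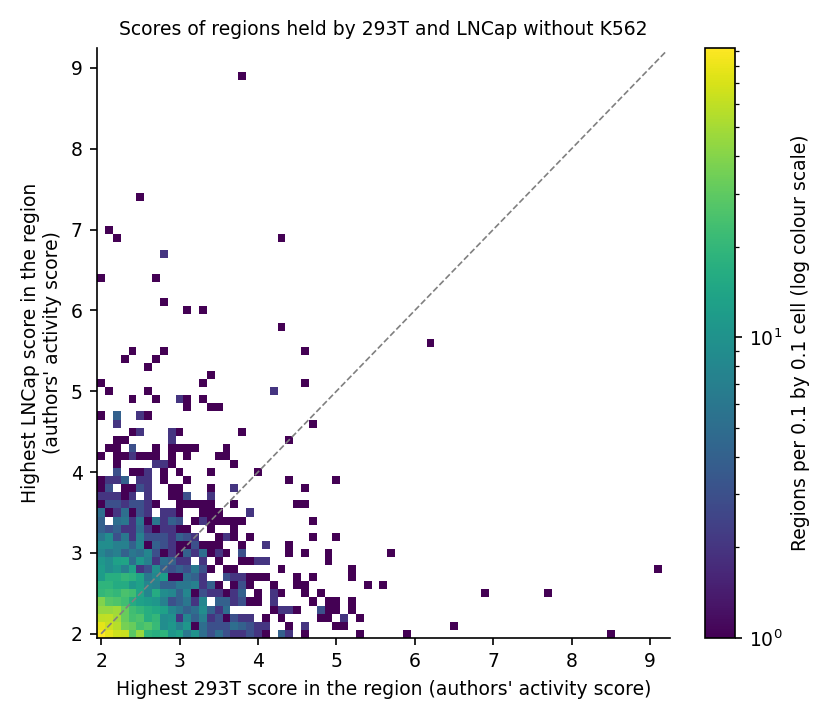
Highest 293T score (horizontal axis) against highest LNCap score (vertical axis) in each of the 2975 regions with finite scores, both in the authors' score units; colour gives the number of regions per cell on a log scale and the dashed line marks equal scores. Most regions lie near the lowest score of 2 in both lines; the highest 293T score, 9.1, lies with 2.8 in LNCap, the highest LNCap score, 8.9, with 3.8 in 293T, and 1 region lies above 5 in both.

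Most of the regions scored below 3 in at least 1 line, which is not particular to the set. Over all regions with a silencer of the line, only 14.2% in 293T and 11.6% in LNCap scored 3 or more. Both lines scored 2 or 2.1 in 311 regions (10.5%), at least 1 line scored 3 or more in 867 (29.1%), both did in 4.34%, and both scored 4 or more in 10. The strongest in both lines lay on chromosome 7 from 56040193 to 56040251, with a score of 6.2 in 293T and 5.6 in LNCap, 49 shared bases and the nearest K562 silencer 10058 bp away. It was the only region above 5 in both lines. Next came chromosome 11 from 111218851 to 111218910 (4.6 in 293T, 5.5 in LNCap), chromosome 1 from 44914967 to 44915051 (4.6 and 5.1) and chromosome 20 from 14456750 to 14456851 (4.7 and 4.6). The remaining 4 of the 8 strongest lay on chromosome 9 from 96354901 to 96355001 (4.4 in both), chromosome 6 from 109488751 to 109488836 (4.3 and 6.9), chromosome 7 from 63876751 to 63876850 (4.3 and 5.8) and chromosome 17 from 74774673 to 74774751 (4.2 and 5). Being absent from K562 did not always mean being far from a K562 silencer: the region on chromosome 11 lay 41 bp from one and that on chromosome 17 lay 30 bp from one, while the other 6 lay 4850 to 21704 bp away.

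Regions with the largest difference between lines were strong in 1 line and scored 2 to 3.8 in the other. LNCap exceeded 293T most on chromosome 7 from 117529300 to 117529351, where the intervals shared 50 bp and the scores were 8.9 in LNCap and 3.8 in 293T. It also did so on chromosome 1 from 223417025 to 223417251 (7 against 2.1), chromosome 9 from 124728101 to 124728401 (7.4 against 2.5) and chromosome 12 from 21841239 to 21841301 (6.9 against 2.2). In the other direction, 293T scored 8.5 and LNCap 2 on chromosome 14 from 35375275 to 35375400. The next were chromosome 5 from 159708245 to 159708301 (9.1 against 2.8), chromosome 4 from 118503582 to 118503782 (7.7 against 2.5) and chromosome 1 from 5519049 to 5519187 (6.5 against 2.1). Except for chromosome 7, the lower score in each of these was 2.8 or less. A single list per line gives no error for such a difference.

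The 4 regions with most shared bases had scores between 2 and 3.6. Shared bases are summed over the overlapping pairs of a region, so they need not form 1 continuous stretch. On chromosome 19, 450 bp were shared from 11979058 to 11979955 (2 intervals of each line, highest scores 2.2 in 293T and 3.6 in LNCap) and 450 bp from 56424000 to 56424483 (2.1 and 2). On chromosome 1, 350 bp were shared from 227655001 to 227655601 (2.8 and 2.7). On chromosome 5 the intervals of both lines were the same 350 bp, from 126097201 to 126097551, with a score of 2.2 in each. All 4 lay at least 4688 bp from a K562 silencer. No region held 3 or more intervals of each line; 4 held 3 of 1 line.

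Whether K562 joined a region of 293T and LNCap varied with its width and its score. By the width that the 293T and LNCap intervals spanned, K562 was present in 13.7% of 1204 regions of up to 100 bp (interval 11.9 to 15.8) and in 50.8% of 729 regions over 300 bp (interval 47.1 to 54.4). The rise with width is partly built into the merging. A K562 interval that alone joins 293T and LNCap intervals widens the span, and a wider span has more room for a K562 silencer. The size of this part was not tested. By the lower of the 293T and LNCap scores, it was present in 25.6% of 1920 regions at 2 to 2.1 (interval 23.7 to 27.6) and in 41.6% of 221 regions at 3 or more (interval 35.3 to 48.2). At fixed width the difference by score was uneven. In regions of up to 100 bp the share was 10.2% of 521 at 2 to 2.1 (interval 7.86 to 13.1) and 20.1% of 214 at 2.5 to 2.9 (interval 15.27 to 25.97), and over 300 bp it was 41.5% of 342 (interval 36.4 to 46.8) and 60.3% at the same scores (interval 51.2 to 68.8). Over 150 and up to 200 bp it was 26.04% (interval 21.1 to 31.6) and 44.9% (interval 35.4 to 54.8). The intervals overlapped over 100 and up to 150 bp, at 22.8% (interval 18.999 to 27.2) and 26.4% (interval 19.9 to 34.1), and over 200 and up to 300 bp, at 34.96% (interval 30.4 to 39.8) and 40.7% (interval 33.03 to 48.8). At 3 or more the classes are small. In regions of up to 100 bp the share of 20.3% (interval 12.5 to 31.2) overlapped that at 2 to 2.1. The intervals also overlapped over 150 and up to 200 bp and over 200 and up to 300 bp. They stood apart over 100 and up to 150 bp, at 44.2% of 43 (interval 30.4 to 58.9). Over 300 bp they did so too, at 66.7% of 30 (interval 48.8 to 80.8). The regions that lacked K562 were thus, on the whole, the narrower and lower scoring of those that held both 293T and LNCap. Even so, K562 was found in only 92 of the 221 regions that scored 3 or more in both lines.

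**Figure D3:**
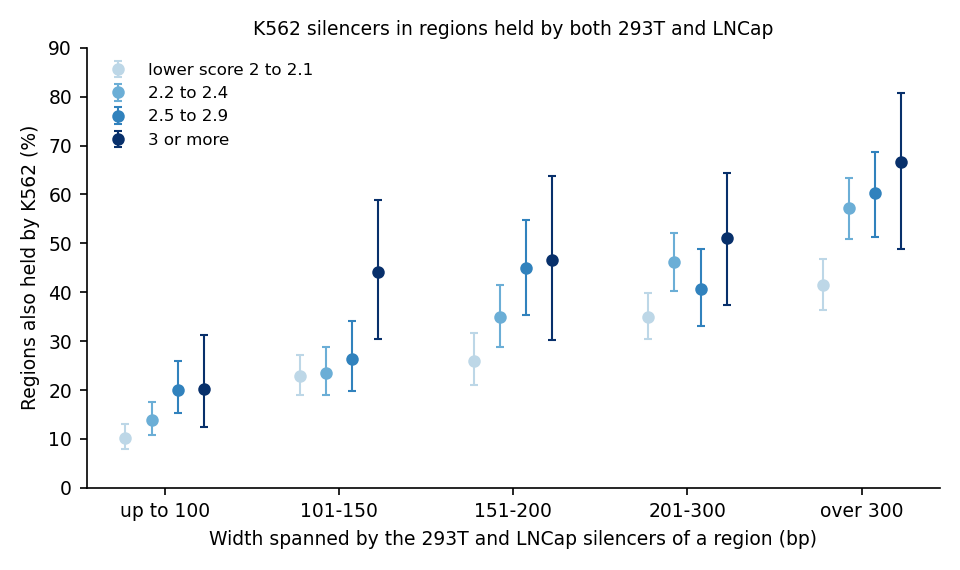
Share of regions held by both 293T and LNCap that K562 also held (vertical axis, %), by the width spanned by the 293T and LNCap silencers (horizontal axis, bp) and by the lower of the scores of both lines (shades of blue); bars are 95% Wilson intervals for counting error. The share lies at 10.2% for narrow regions at 2 to 2.1 and at 60.3% for regions over 300 bp at 2.5 to 2.9.

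Absence from K562 was local in a part of the set. The nearest K562 silencer lay a median of 5750 bp away (quartiles 1800 and 13606, highest 122080). It touched the region in 28 cases, lay within 50 bp in 4.91% (interval 4.19 to 5.74) and within 1000 bp in 534 (17.9%, interval 16.6 to 19.4). In regions of LNCap alone 6.11% had a K562 silencer within 50 bp and 19.3% within 1000 bp, and in regions of 293T alone 1.68% and 12.1%. The shared regions thus lay near a K562 silencer more often than regions of 293T alone, and within 50 bp less often than regions of LNCap alone, by intervals that did not overlap. Where the K562 silencer lay within 50 bp, its median score was 2.4 and the regions had median scores of 2.4 in 293T and 2.4 in LNCap; beyond 5000 bp these were 2.2, 2.3 and 2.3. With K562 required to be more than 5000 bp away, 1600 regions were left. The farthest, on chromosome 1 from 209640501 to 209640921, had scores of 2.7 in 293T and 2.1 in LNCap; it was picked after its distance was seen.

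**Figure D4:**
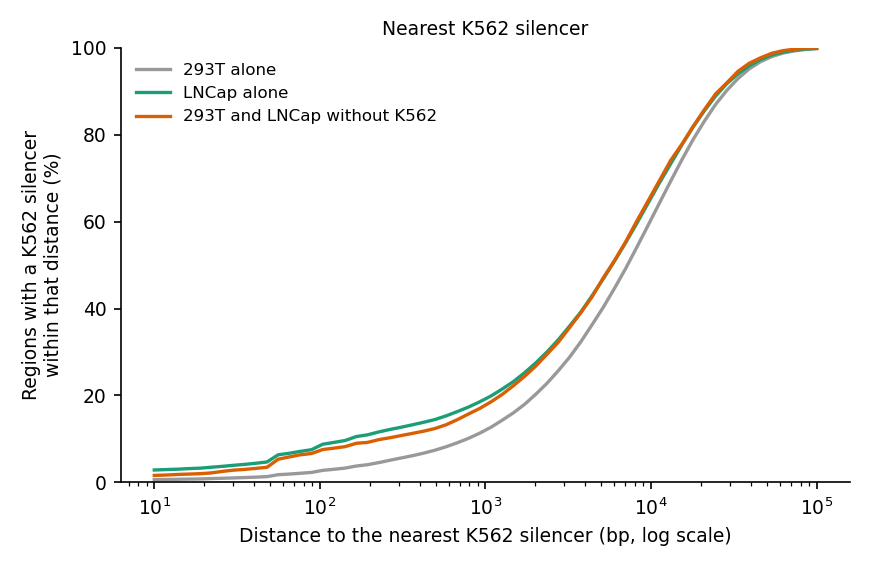
Share of regions (vertical axis, %) with a K562 silencer within a given distance (horizontal axis, bp, log scale), for 293T alone (grey), LNCap alone (green) and 293T and LNCap without K562 (orange). Within 1000 bp the curves stand at 12.1%, 19.3% and 17.9%.

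Regions lay on all 22 autosomes, from 34 on chromosome 21 to 235 on chromosome 2. Per Mb, chromosome 19 held the most (2.76 regions per Mb), followed by chromosome 17 (1.63 per Mb), and chromosome 21 the fewest (0.729 per Mb). Over the 22 autosomes, regions per Mb followed LNCap density (Spearman 0.75) more than 293T density (0.33); each set of regions is itself part of both densities. As a share of the 293T regions of a chromosome, the set was highest on chromosome 22 (4.97%, interval 3.91 to 6.29), chromosome 19 (4.79%, interval 4.12 to 5.56) and chromosome 17 (3.74%, interval 3.17 to 4.41), and lowest on chromosome 4 (1.79%, interval 1.54 to 2.08). As a share of the LNCap regions the spread was narrower, from 1.90% on chromosome 4 to 3.12% on chromosome 22. On chromosomes 17 and 19 K562 took part in more of the regions that held both 293T and LNCap, 39.8% of 226 and 37.9% of 261, than the 30.4% over all autosomes. Median scores of the set varied little between chromosomes, from 2.25 to 2.5 in 293T and from 2.2 to 2.5 in LNCap.

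**Figure D5:**
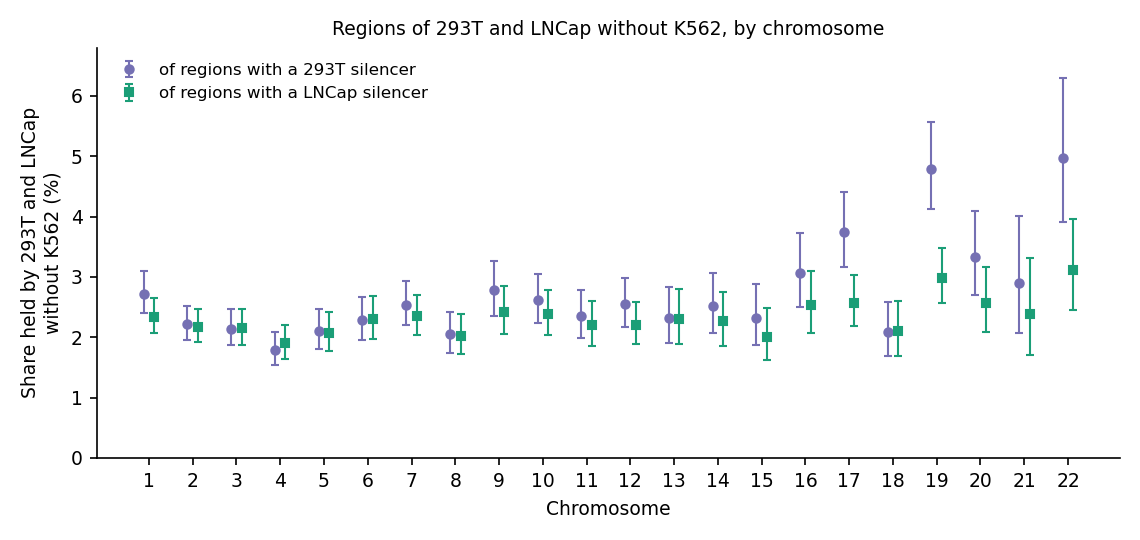
Share of the regions with a 293T silencer (purple circles) and of the regions with a LNCap silencer (green squares) that were held by 293T and LNCap without K562 (vertical axis, %), by chromosome (horizontal axis); bars are 95% Wilson intervals for counting error. Chromosomes 19 and 22 reach 4.79% and 4.97% of 293T regions, and chromosome 4 is lowest at 1.79%.

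Within chromosomes the regions were scattered. Of 2762 bins of 1 Mb with any region, 1668 held at least 1 of the set and 333 held 3 or more. Neighbours lay a median of 541 kb apart, and joining those within 500 bp left 2933 groups, so few of the 2976 lay next to another. With bins put into 4 classes of equal size by their number of LNCap regions, the richest class held 44.7% of the set, and there it made up 3.49% of 293T regions, against 1.65% in the poorest class. The sorting counts LNCap regions, the set's own among them, so a rise in the share of 293T regions is partly built in. As a share of LNCap regions, the richest and the poorest class gave 2.48% and 2.097%. The outermost 1 Mb of the chromosomes held 58 regions (1.949%, interval 1.51 to 2.51), against 1.12% of regions of 293T alone (interval 1.06 to 1.18) and 1.38% of LNCap alone (interval 1.31 to 1.45). The other shared sets had intervals that overlap that of the set, at 1.65% for K562 and LNCap (interval 1.47 to 1.85), 1.69% for all 3 lists (interval 1.12 to 2.55) and 1.38% for 293T and K562 (interval 1.01 to 1.901). Within 5 Mb of the ends the set had 7.69% (interval 6.79 to 8.71), which covers the 7.36% of LNCap alone, and 293T alone had 5.81% (interval 5.67 to 5.95).

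The fullest bins held 7 regions each, and 13 more held 6. On chromosome 1, the bin from 23 to 24 Mb had 7 of its 296 regions in the set and no region of all 3 lists. LNCap scored 3 or more in 5 of these 7, at 4.1, 4.5, 4.8, 3.4 and 4, and 2 and 2.2 in the others. Of the other LNCap regions of this bin, 19 scored 3 or more (18.3%). In 293T the same 7 scored 2.1 to 3.4, so the high values were mainly those of LNCap. The bin on chromosome 17 from 75 to 76 Mb had 7 of 265 regions, with scores of 2 to 2.7 in 293T and 2 to 3.3 in LNCap, and that on chromosome 5 that starts at 140 Mb had 7, or 4.05% of its regions, with scores of 2.2 to 2.9 and 2 to 3.5. Among the 225 bins with at least 200 regions, the highest share was on chromosome 20 from 34 to 35 Mb, at 6 of 210 (2.86%). Counts this small carry a wide counting error, and these bins were picked for being full.

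Further silencers of the same line were as common around these regions as around others. Another 293T silencer lay within 500 bp of 25.8% of the regions (interval 24.3 to 27.4), against 25.7% for 293T alone. Another LNCap silencer did so for 25.3% (interval 23.8 to 26.9), against 25.9% for LNCap alone. In each line the intervals of the shares overlapped.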

How the data were processed

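Silencers were mapped by Ss-STARR-seq, with RNA output set against plasmid input. Reads were handled with Bowtie2 and SAMtools on hg38, per the submitters' processing notes; for the region caller, its thresholds, the input behind each list and any pooling, the entry is: not given in the sources used here. Each deposited list gives chromosome, start, end and an activity score of the authors, per the file headers, with no counts, so read depth is unknown and intervals cover counting error only.

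Left out were malformed lines, lines on other chromosome names, intervals without positive width and intervals wider than 5000 bp (58 lines of 293T, 12 of K562 and 24 of LNCap), and chromosomes X and Y were not used. Infinite scores were kept for positions only. Regions were merged at 1 bp, and a region's score is the highest of its intervals. Distances run from region edge to interval edge. Chromosome lengths were taken as the highest listed end.

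The regions, the classes of score and width, and the rules for naming regions were chosen with earlier results of these data known. Named are the 8 regions with the highest lower score, the 4 with the largest difference each way, the 4 with most shared bases, the fullest bins of 1 Mb and the bin with the highest share. Gene features, gene lists, base composition and motifs were planned but need a human genome and were not analysed here. No test was run. The merging was tested on simulated data and recovered 700 of 700 planted regions. The scripts ran under Python 3.11.15. Tables were joined in pandas 2.3.3, on numpy 2.4.6. Intervals came from scipy 1.17.1, and plots from matplotlib 3.10.9.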

Additional observations from a re-analysis of the deposited data

How the results depend on the processing

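With 1 list per line no replicate could be left out, and no paired analysis was possible because the lists carry no replicates and no test was run. Of 19 alternative values, 10 moved by less than the counting interval or, for the number of regions, stayed within 1.5 times of 2976. Merging at 25 bp gave 2412 regions, leaving out those with K562 within 500 bp gave 2601, keeping lines without limit on width or fields, where broken lines join long stretches, gave 1997, and merging touching intervals, an alternative added after the data were seen, gave 3354. Stricter settings left fewer regions by construction: 1058 with at least 50% of each interval shared, 1600 with K562 more than 5000 bp away, 1078 with silencers above the median score of their list and 735 with scores of at least 2.5. LNCap had the higher score in 44.5% of regions, in 55.1% by rank within the list and in 46.5% where at least 50% of each interval was shared. A K562 silencer lay within 1000 bp in 17.9% of regions and in 11.1% above the median score, where fewer K562 silencers remained. Chromosome 19 held 5.44% of the regions, 3.31% with K562 more than 5000 bp away and 6.96% above the median score; the cause was not tested. Alternatives for promoters, base composition and repeats were not run, for want of a human genome.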
